A study of Mus musculus with 10 samples.

Results

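Il33 and 4 genes of the interleukin-1 receptor system were followed in C2C12 myoblasts given a mimic of miR-27a-3p. The 4 others were Il1rl1, Il1rn, Il1r1 and Il1rap. They were chosen by name, as the non-control probes whose gene name in the array files is 1 of these 5 symbols, with their differences in these data already known. Their levels are therefore given as a description, without a test. The 5 genes were read by 9 of 55681 probes, and the series held 34607 genes and transcripts in all.

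C2C12 is an established mouse myoblast line that can be made to form myotubes. Cells were transfected by Lipofectamine with the mimic, a synthetic RNA that supplies the mature microRNA (6 samples), or with a scrambled sequence (4 samples), each at 150 nM, and harvested after 72 h. Transfection efficiency was estimated at 60% in the labels, so each sample mixes cells that took up the RNA with cells that did not, and untreated cells were not analysed here. RNA was hybridised to 1-colour Agilent arrays, and the 10 files proved to be 2 scans each of 5 array positions, so 3 arrays carried mimic RNA and 2 carried RNA of the scrambled sequence.

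A level is the log2 signal of a probe minus the file's 75th percentile over the probes detected in all files, so a level of 0 equals that percentile. A probe counted as detected where the scanner software marked it well above background. Levels of different probes are on different scales and are not ranked against each other. Each file had 62976 spots, of which 27% to 35.3% of those other than controls were well above background and 0 were saturated. The 2 scrambled arrays differed by an SD of 0.56 across the log2 differences of detected probes, and pairs of mimic arrays by 0.32 to 0.44. Of the myoblast marker list, 7 of 8 genes were detected in at least 1 file, and Pax7, a satellite cell factor, was detected in none.

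Interleukin-33 is a nuclear cytokine that damaged cells release as an alarm signal. It binds the receptor ST2, the product of Il1rl1, which then recruits the accessory chain encoded by Il1rap. Interleukin-1 binds the receptor encoded by Il1r1 and recruits the same accessory chain, and the Il1rn product is an antagonist that occupies this receptor without signalling. Both receptors act through the adaptor Myd88, the Irak kinases and Traf6 on NF-kB and the stress kinases. In skeletal muscle, Il33 is known from fibro-adipogenic cells, which lie between the fibres, and from its action on regulatory T cells.

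The microRNA supplied by the mimic is shown in its mature form as RefSeq gives it for GRCm38.p6, where it lies at chr8:84208727-84208747 on the plus strand. The capitals mark the seed, bases 2 to 8.
mmu-miR-27a-3p: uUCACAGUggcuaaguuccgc
The DNA letters that pair with the whole seed, ACTGTGA, were absent from all 9 of the 60-base probes of the 5 genes, which says only that the probed stretches lack these letters.

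The first 30 bases of 5 probes are shown because the readings described below rest on these short stretches of the transcripts. The Il33 probe lies at chr19:30035101-30035160, the Il1r1 probe at chr1:40372667-40372726 and the Il1rn probe at chr2:24205094-24205153, all on mm9 as the files give them. The ST2 probes shown are 1 for transcript variant 1, at chr1:40520014-40520073, and 1 for transcript variant 2, at chr1:40504769-40504828.
Il33 probe: gtgaatctgtacgatatctttaaagtagta
Il1r1 probe: tacttagatttcaccgtactttctgatggt
Il1rn probe: aacacaccggaagagccccttatagtcacg
Il1rl1 variant 1 probe: ccttacccaaattgccattacagtcgagca
Il1rl1 variant 2 probe: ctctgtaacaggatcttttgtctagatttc

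Il33 and Il1r1 were measured in every file, and they moved in opposite directions. Il33, the alarm cytokine, was higher after the mimic and Il1r1, the signalling receptor of interleukin-1, was lower. The probes of Il1rl1, Il1rn and Il1rap were not well above background in any of the 10 files, so 2 of the 5 genes passed the filter on dim probes (detection in at least 4 of the 10 files). In both measured genes the mimic arrays did not overlap the scrambled arrays. Over all 13148 genes tested, 45.6% had arrays that did not overlap, 19.8% with the mimic higher and 25.7% with the mimic lower. Because the 2 genes were picked with these differences known, nothing is read from the comparison with that background.

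Il33 had levels of -0.12, -0.14 and -0.12 in the 3 mimic arrays, against -2.30 and -2.75 in the 2 scrambled arrays. With the 2 scans averaged, the mimic arrays lay within 0.02 of each other, and both scrambled arrays lay far below them. Single files spread more, from -0.22 to -0.03 after the mimic and from -2.80 to -2.22 with the scrambled sequence. The means were -0.13 ± 0.01 in mimic arrays (SD, n = 3) and -2.52 ± 0.32 in scrambled arrays (SD, n = 2). The difference was 2.40 ± 0.17 (SE of the limma fit), 5.27-fold higher after the mimic. As raw processed signal, the probe read 1823 to 3235 units in the 6 mimic files and 295 to 576 units in the 4 scrambled files. The Il33 difference was the 21st largest rise among the 13148 genes.

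Il33 differed by 2.44 in the first scan and by 2.35 in the second. It differed by 2.17 without scrambled array 2, by 2.62 without scrambled array 1, and by 2.39 to 2.40 without any 1 of the mimic arrays. Scrambled array 2 thus had the lower Il33 level of the pair, and it also stood farther from the mimic arrays over detected probes (SD 0.72 to 0.75, against 0.50 to 0.61 for scrambled array 1). RNA was taken from whole cultures, so more cells with the transcript and more transcript per cell cannot be told apart for Il33 or for any other gene here.

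**Figure D1:**
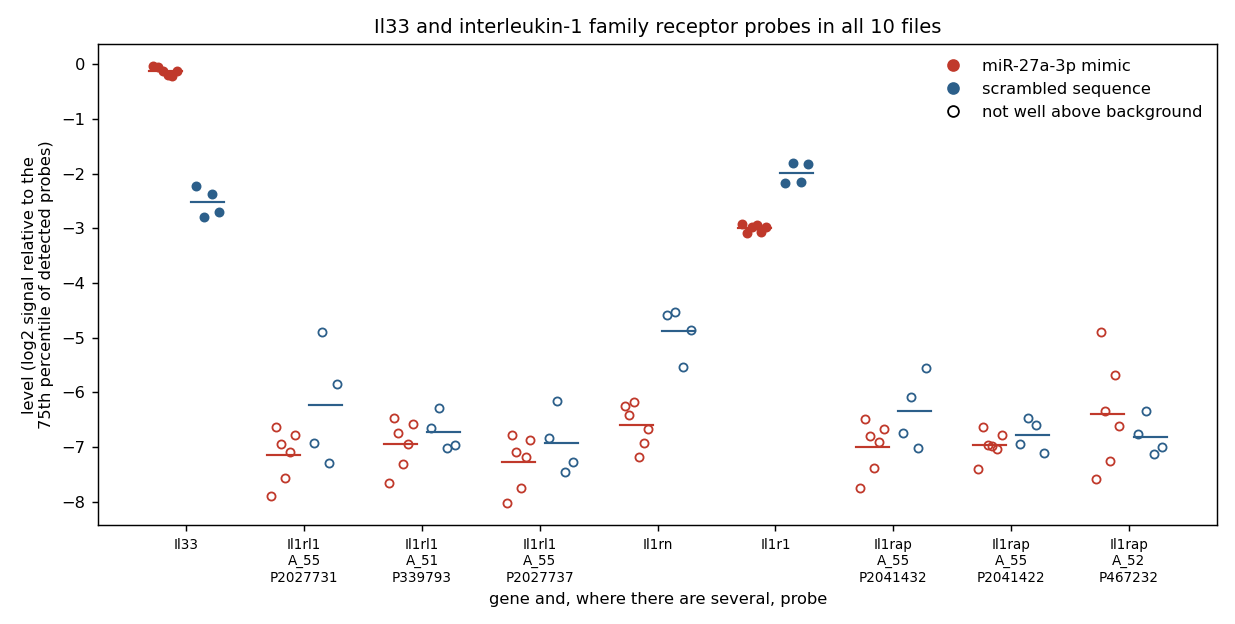
Level of each probe of the 5 genes in all 10 files, on the log2 scale with 0 at the file's 75th percentile, with the mean of each group as a line and open circles for files in which the probe was not well above background. The 6 mimic files lie above the 4 scrambled files for Il33 and below them for Il1r1, and every circle of the other 3 genes is open.

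RefSeq lists 2 starts for Il33, and the promoters of both are shown because the files assign the single Il33 probe to 2 RefSeq transcripts of the gene. Each is 250 bases before and 50 after the start on GRCm38.p6, plus strand, at chr19:29924863-29925162 for the first and chr19:29945540-29945839 for the second. The capitals mark the E-box CAGCTG, a motif that myogenic factors can bind, and the TATA box letters TATAAA.
Il33 promoter 1: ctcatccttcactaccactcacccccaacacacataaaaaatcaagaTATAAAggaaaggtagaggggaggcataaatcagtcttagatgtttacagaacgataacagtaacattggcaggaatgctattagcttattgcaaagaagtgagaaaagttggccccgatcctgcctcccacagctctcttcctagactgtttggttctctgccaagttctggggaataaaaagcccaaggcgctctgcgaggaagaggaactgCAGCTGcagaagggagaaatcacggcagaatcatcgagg
Il33 promoter 2: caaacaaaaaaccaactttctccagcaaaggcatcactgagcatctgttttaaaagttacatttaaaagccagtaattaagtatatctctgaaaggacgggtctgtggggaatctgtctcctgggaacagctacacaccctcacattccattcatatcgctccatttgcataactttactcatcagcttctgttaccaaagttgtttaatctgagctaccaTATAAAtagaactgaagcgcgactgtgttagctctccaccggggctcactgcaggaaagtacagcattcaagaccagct
The second promoter has TATAAA at bases 222 to 227, with its first base 29 bases before the start, whereas the first has these letters at bases 48 to 53, far upstream, and CAGCTG at bases 262 to 267, just after the start.

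Each motif was searched on both strands in the 10 promoters that RefSeq gives for the 5 genes and in all 32851 promoters of the same length. The kappa B letters, GGGA and TTCC with any 2 bases between them, which NF-kB can bind, were in 0 of the 10 and in 1.47% of all promoters. The AP-1 letters TGANTCA were in 1 of the 10, an Il1rn promoter, and in 7.81% of all. CAGCTG was in 2 of the 10, 1 of Il33 and 1 of Il1rn, and in 16.3% of all. TATAAA was in 3 of the 10, both of Il33 and 1 of Il1rn, and in 13.6% of all. A match describes the letters and is neither a site nor a cause, and no match says only that these letters are not in the window.

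Il1r1 had levels of -2.93, -3.08 and -2.97 in the mimic arrays, against -2.16 and -1.81 in the scrambled arrays. All 3 mimic arrays lay below both scrambled arrays. The means were -2.99 ± 0.08 in mimic arrays (SD, n = 3) and -1.99 ± 0.25 in scrambled arrays (SD, n = 2). The difference was -1.01 ± 0.16 (SE), 2.01-fold lower after the mimic, and it placed Il1r1 446th among the 13148 genes ordered from the deepest fall. The probe read 252 to 436 signal units in the mimic files and 508 to 627 in the scrambled files, well above background in all 10.

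Il1r1 differed by -1.01 in the second scan alone, and the first scan gave a difference within 0.01 of it. Without scrambled array 1 the difference was -1.18, and without scrambled array 2 it was -0.83. The scrambled array with the lower Il33 level, array 2, was the one with the higher Il1r1 level. With 2 arrays the order can only be the same or the opposite, so nothing is read from it. The files give 1 probe for Il1r1, for its transcript variant 1.

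Il1rn, the antagonist, had levels of -6.71, -6.66 and -6.43 in the mimic arrays, against -5.06 and -4.69 in the scrambled arrays. These groups did not overlap either, but the probe was well above background in 0 of the 10 files, so no fold is given. Its signal was 17.6 to 43.6 units in the mimic files and 48.7 to 111 units in the scrambled files. In the scrambled files of replicates 1 and 4 its levels, -4.59 and -4.86, lay above the lowest level that the software accepted elsewhere in the same file, -4.91 and -4.98, without the probe itself being accepted. The authors' deposited value table holds a value for this probe in 2 mimic files and in all 4 scrambled files.

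**Figure D2:**
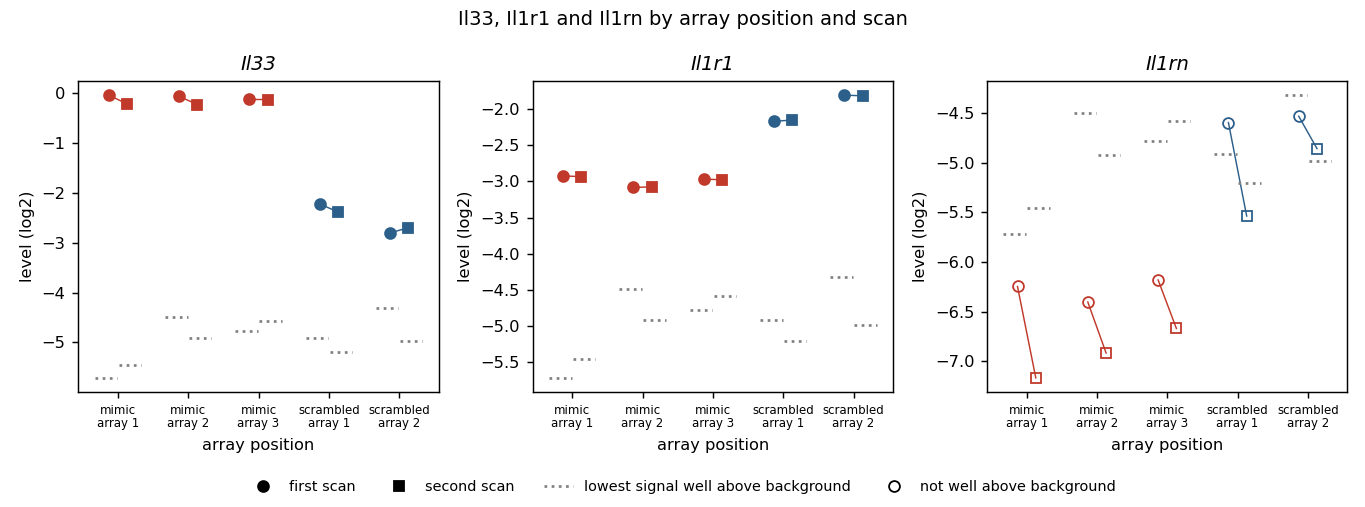
Level of Il33, Il1r1 and Il1rn on the log2 scale in each of the 5 array positions, circles for the first scan, squares for the second, dotted lines for the lowest level well above background in that file and open symbols for values not well above background. Scans of 1 position lie close together for Il33 and Il1r1, while Il1rn falls between scans on all 5 positions and lies near or under the dotted lines.

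Il1rl1, which encodes ST2, the receptor for interleukin-33, was read by 3 probes. Of these, 2 target transcript variant 1, the membrane receptor, and 1 targets variant 2, the shorter transcript for the soluble decoy form that binds the cytokine outside the cell. The first variant 1 probe had levels of -7.72, -6.86 and -6.86 in mimic arrays and -7.11 and -5.36 in scrambled arrays. The second had -7.89, -6.97 and -6.98 in mimic arrays and -7.14 and -6.71 in scrambled arrays. The soluble form's probe had -7.48, -6.70 and -6.66 in mimic arrays and -6.83 and -6.62 in scrambled arrays. The groups overlapped for all 3 probes, and the signals of all 3 lay between 12.2 and 74.3 units. Neither the membrane nor the soluble ST2 transcript was thus detectable on these arrays in either condition, which sets only an upper bound on their level.

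Il1rap, the accessory chain that both receptors need, was also read by 3 probes, 1 of variant 1 (the membrane form), 1 of variant 2 (a soluble form) and 1 of a further Ensembl transcript. The variant 1 probe had levels of -7.19, -6.83 and -6.87 in mimic arrays and -6.77 and -6.79 in scrambled arrays. The variant 2 probe had -7.41, -5.29 and -6.48 in mimic arrays and -6.95 and -6.66 in scrambled arrays. The Ensembl transcript's probe had -7.56, -6.69 and -6.73 in mimic arrays and -6.87 and -5.82 in scrambled arrays. The variant 2 probe read 83.0 and 41.3 units in the 2 scans of mimic array 2, its highest values, and was not well above background there either. The groups overlapped for the variant 2 and Ensembl probes. The variant 1 probe lay lower in all 3 mimic arrays than in both scrambled arrays, but was well above background in no file. The probes of Il1rap lie at chr16:26716515-26716574, chr16:26701498-26701557 and chr16:26725291-26725350 on mm9, in the order given.

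Il1r1 and Il1rl1 share a cluster on chromosome 1, in a run of 6 receptor genes that RefSeq lists in the order Il1r2, Il1r1, Il1rl2, Il1rl1, Il18r1 and Il18rap. Of these, Il1r1 alone was detected in any file. Il1rn ends a run of 6 genes on chromosome 2, with the interleukin-36 and related ligands Il1f8, Il1f9, Il1f6, Il1f5 and Il1f10 before it, and 0 of those 6 were detected in any file.

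The other genes of the pathway were taken as 6 lists with 90 genes, 51 of which were tested. With limma and Benjamini-Hochberg adjustment over all 13148 genes, 4 of the 51 rose and 4 fell past an adjusted p of 0.05, while 43 did not pass, and 20 had an unadjusted p under 0.05. Over all genes tested 5.12% passed (2.79% higher and 2.33% lower after the mimic). An unadjusted p under 0.05 was reached by 3329 of the 13148. The median difference was -0.22 for the 51 genes and -0.05 for all genes. The count of 8 depended on single arrays. It was 0 without mimic array 1 (10 at unadjusted p), 1 without mimic array 2, 1 without mimic array 3, 28 without scrambled array 1 and 4 without scrambled array 2. The labels call the transfections independent, but the arrays do not show it, and the p-values cover the spread between the 5 arrays only, part of which may be technical.

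Among 8 other ligands of the family, Il18 alone was tested, and it rose. Il18 encodes interleukin-18, which, as interleukin-1 beta does, needs cutting by caspase-1 before it is active. Its levels were -1.83, -1.84 and -2.03 in mimic arrays and -2.76 and -3.07 in scrambled arrays. The difference was 1.02 ± 0.16 (SE; limma adjusted p = 0.0287). The call was lost without any 1 of the mimic arrays or without scrambled array 2 (adjusted p up to 0.159) and held without scrambled array 1 (0.0145). Il1a and Il1b, which encode the cytokines that bind Il1r1, were among the 7 ligands detected in no file.

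Of 8 other receptors and decoys, 0 were tested and 6 were detected in no file. The remaining pair, named here after their values were seen, were Sigirr and Il18bp. Sigirr encodes a receptor that dampens interleukin-1 signalling, and Il18bp encodes a protein that binds and neutralises interleukin-18. Sigirr had levels of -4.93, -6.24 and -5.29 in mimic arrays and -5.65 and -5.66 in scrambled arrays, and was detected in 2 of 6 mimic files and 0 of 4 scrambled files. Il18bp had levels of -5.48, -5.70 and -5.80 in mimic arrays and both -5.47 in scrambled arrays, and was detected in 1 of 6 mimic files and 0 of 4 scrambled files.

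Of the 23 genes that carry the signal from the receptor, 18 were tested. With limma 0 of them passed in either direction (4 at an unadjusted p under 0.05). They had 6 positive and 12 negative differences and a median of -0.24. Among all 13148 genes tested, 5958 differences were positive and 7190 negative. The pair with the smallest p were Tab2, an adaptor of the kinase TAK1, with 0.55 ± 0.16 (SE; limma adjusted p = 0.107), and Ube2n, a ubiquitin-conjugating enzyme that works with Traf6, with -0.54 ± 0.16 (0.113). Of 15 NF-kB subunits and inhibitors, 11 were tested and 0 passed (2 at an unadjusted p under 0.05), with a median of -0.25. Nfkbib, an inhibitor that holds NF-kB in the cytoplasm, differed by -0.51 ± 0.16 (limma adjusted p = 0.12). Tnfaip3, which encodes the feedback inhibitor A20, differed by 0.52 ± 0.21 (0.197). The shared adaptor Myd88 had levels of -2.92, -2.84 and -2.84 in mimic arrays and -2.63 and -1.99 in scrambled arrays and did not pass.

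Of 12 genes of cytokine processing and the inflammasome, 10 were tested, 2 rose and 0 fell, with a median of 0.38. Casp1, the protease that cuts the precursors of interleukin-1 beta and interleukin-18, had levels of -3.06, -3.07 and -3.23 in mimic arrays and -4.15 and -4.98 in scrambled arrays. Its difference was 1.44 ± 0.26 (SE; limma adjusted p = 0.0385), and the probe was well above background in 6 of 6 mimic files and 2 of 4 scrambled files. With normexp background correction the difference was 0.84 (0.0497). Casp4, the mouse caspase-11 that senses bacterial lipopolysaccharide, had levels of -1.16, -1.43 and -1.19 in mimic arrays and -2.07 and -2.43 in scrambled arrays. Its difference was 0.99 ± 0.18 (limma adjusted p = 0.0385), with 0.91 on a second probe. The Casp1 call was lost without any 1 of the mimic arrays (adjusted p up to 0.155), and the Casp4 call was also lost without scrambled array 2 (up to 0.187). Nlrp3 and Pycard, the sensor and the adaptor of the best-known inflammasome, were the 2 genes of this list detected in no file.

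**Figure D3:**
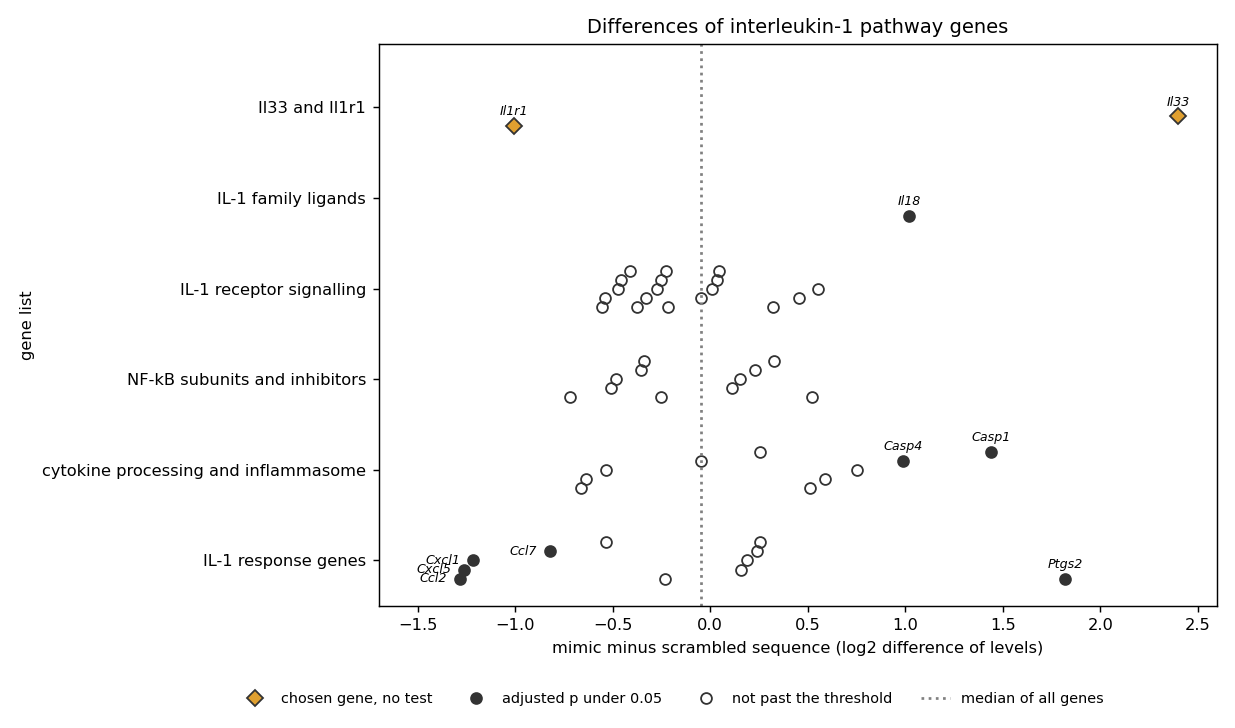
Difference of each tested gene, mimic minus scrambled sequence on the log2 scale, by list, with filled circles for an adjusted p under 0.05, open circles for the rest, diamonds for Il33 and Il1r1, which were described without a test, and a dotted line at the median of all genes. The 18 signalling and 11 NF-kB genes hold no filled circle, while Il18, Casp1, Casp4 and Ptgs2 lie filled to the right and Ccl7, Cxcl1, Cxcl5 and Ccl2 to the left.

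Of 24 genes listed as interleukin-1 response genes, 11 were tested, 1 rose and 4 fell, with a median of -0.23. Ptgs2, the inducible enzyme of prostaglandin synthesis, rose by 1.82 ± 0.14 (SE; limma adjusted p = 0.00555). The 4 that fell encode chemokines that attract neutrophils or monocytes: Ccl2 (-1.28 ± 0.14, limma adjusted p = 0.0112), Cxcl5 (-1.26 ± 0.14, 0.0103), Cxcl1 (-1.21 ± 0.18, 0.0241) and Ccl7 (-0.82 ± 0.15, 0.0427). The list therefore moved both ways. Without any 1 of the mimic arrays the 4 chemokines lost their calls (adjusted p up to 0.214), and without scrambled array 2 Cxcl1 and Ccl7 did (0.0704 and 0.0674), while Ptgs2 lost its call without mimic array 1 alone (0.0504). Il13ra1 differed by -0.54 ± 0.27 (limma adjusted p = 0.265) and Csf1, the macrophage growth factor, by -0.23 ± 0.14 (0.347), and neither passed. Il6, which encodes a cytokine induced by interleukin-1 in many cell types, was among the 11 genes of the list detected in no file.

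**Figure D4:**
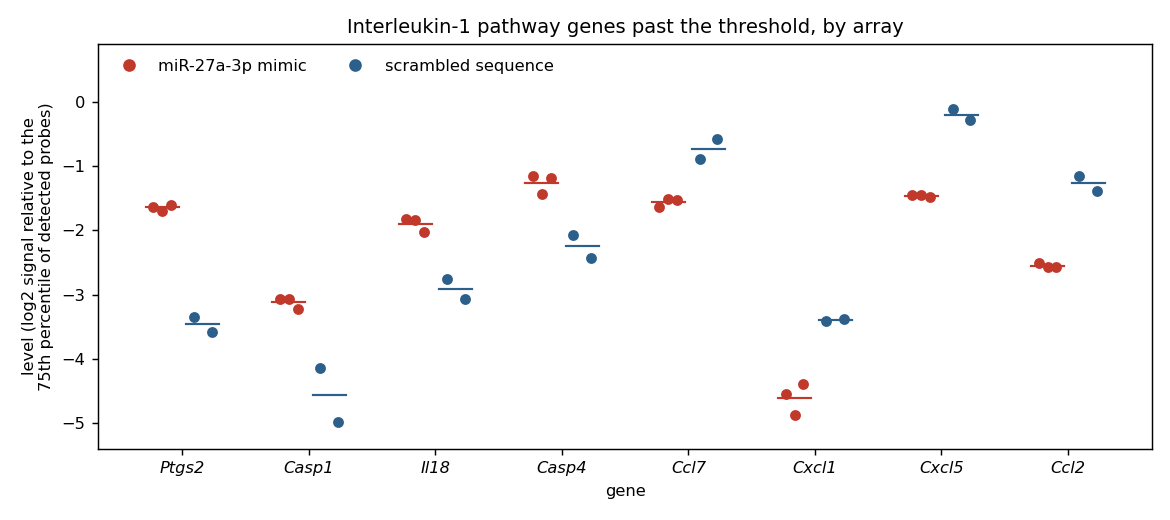
Level on the log2 scale of the 8 pathway genes past the threshold in each array, with the mean of each group as a line and genes ordered by their difference. The 3 mimic arrays lie above both scrambled arrays for Ptgs2, Casp1, Il18 and Casp4 and below them for Ccl7, Cxcl1, Cxcl5 and Ccl2. The genes were chosen by a test on these same arrays, so this separation adds no evidence. The groups did not overlap for 45.6% of all genes tested.

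The tested myoblast markers mostly lay lower after the mimic, and 1 of them passed the threshold. Of 6 tested, 5 had negative differences and 1 a positive one, with a median of -0.78. With limma, 5 of the 6 had an unadjusted p under 0.05. Among all 13148 genes tested, 7190 differences were negative and 3329 genes had an unadjusted p under 0.05. Myog, the factor that drives myoblasts into differentiation, fell by 2.10 on the log2 scale (SE 0.21, limma adjusted p = 0.00922). The 5 others did not pass, among them the integrin gene Itga7 (3.36 ± 0.10 in mimic arrays, n = 3, and 3.81 ± 0.24 in scrambled arrays, n = 2, SD). Myog had levels of 0.32, 0.45 and 0.50 in mimic arrays and 2.22 and 2.82 in scrambled arrays. The scrambled array with the lower Il33 level thus had the higher Myog level. With 2 scrambled arrays the order can only be the same or the opposite, so no link is read from it. The summed signal of the 8 myoblast markers, in multiples of the 75th percentile, was 18.1 to 19.6 in mimic arrays and 25.5 to 34.2 in scrambled arrays. This sum and those of the other marker lists are weighted towards the brightest probes, so they do not measure a list as a whole. The part of differentiation state in the differences of Il33 and Il1r1 was not tested.

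Other cell types known to carry Il33 or its receptor were looked for through their markers, and with limma 0 genes of these lists passed (2 fibroblast markers and 1 macrophage marker had an unadjusted p under 0.05). The summed signal of 7 fibroblast markers was 21.3 to 23.6 in mimic arrays and 17.7 to 19.6 in scrambled arrays, with Thy1 and Tcf21 detected in no file and the collagen gene Col1a2 at a mean level of 3.45 ± 0.07 in mimic arrays (SD, n = 3) and 3.35 ± 0.11 in scrambled arrays (SD, n = 2). Of the 3 genes with an unadjusted p under 0.05, named after their values were seen, Col1a1 differed by 0.56 ± 0.20 (SE; limma adjusted p = 0.166), Dcn by 0.48 ± 0.19 (0.194) and the macrophage marker Cd68 by 0.53 ± 0.14 (0.0952). All 4 tested fibroblast markers had positive differences. Pdgfra, also of this list and named after its values were seen, lay the other way and was too dim to be tested. Its levels were -5.69, -5.87 and -5.86 in mimic arrays and -4.71 and -4.99 in scrambled arrays. It was detected in 1 of 6 mimic files and 1 of 4 scrambled files. The part of fibroblast-like expression in the Il33 difference was not tested. The 8 macrophage and leukocyte markers summed to 1.05 to 1.24 in mimic arrays and 1.16 to 1.32 in scrambled arrays. Ptprc, Adgre1, Lyz2 and Fcgr3 were detected in no file. Cd68, Cd14 and Itgam were detected in every file, and Csf1r in 5 of 6 mimic files and 4 of 4 scrambled files. The integrin gene Itgam averaged -0.18 ± 0.19 in mimic arrays (SD, n = 3) and -0.03 ± 0.08 in scrambled arrays (SD, n = 2). The 8 mast cell and lymphoid markers summed to 0.15 to 0.176 in mimic arrays and 0.169 to 0.171 in scrambled arrays. The mast cell genes Kit, Cpa3, Mcpt4 and Fcer1a were detected in no file, and Cd3e in 5 of 6 mimic files and 3 of 4 scrambled files. Gata3, detected in every file, was at -3.91 ± 0.18 in mimic arrays (SD, n = 3) and -4.03 ± 0.12 in scrambled arrays (SD, n = 2). Of 6 endothelial markers Kdr alone was detected, at -2.41 ± 0.18 in mimic arrays (SD, n = 3) and -2.60 ± 0.14 in scrambled arrays (SD, n = 2), and of 6 epithelial markers 0 were detected.

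The genes whose level followed Il33 most closely over the 5 arrays were Areg, Thbs3, Flt1, Nid1 and Itgb4, with Pearson correlations of 0.9997, 0.9996, 0.9996, 0.9993 and 0.9993 among 10153 genes with a plain symbol. Areg encodes the growth factor amphiregulin, Thbs3 a thrombospondin, Flt1 a receptor for vascular endothelial growth factor, Nid1 a basement membrane protein and Itgb4 an integrin of hemidesmosomes. Areg, for example, had levels of -3.31, -3.32 and -3.36 in mimic arrays and -5.08 and -5.42 in scrambled arrays. Areg was well above background in 1 of 4 scrambled files, Flt1 in 3 and Itgb4 in 0, so the likeness of these 3 genes rests in part on scrambled levels that were not detected. The most opposite were Top1mt (-0.9993) and Myl6b, Cx3cl1, Cdc42ep1 and Sde2 (-0.9987 each). Il1r1 itself stood at -0.99. These arrays fall into 2 groups, and the gap between the groups sets such correlations: 631 of the genes exceeded 0.95, and no p is given.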

How the data were processed

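Total RNA of 10 samples was hybridised to 1-colour (Cy3) Agilent mouse arrays, labelled from 150 ng of RNA per the labels' protocols. The deposited scanner files hold each spot's intensity on a linear scale, and per the file headers the processed signal is the background-subtracted and detrended output of Agilent Feature Extraction. The headers name version 12.0.0.7 and mm9 probe positions, while version 10.7.3.1 stands in the submitters' processing notes. A deposited value table holds 1 linear intensity per probe. Its columns followed the scanner signals (Spearman correlation of 0.9987 or more), were not centred, had medians of 188.9 to 291.1 and left 57.1% to 63.1% of probes empty by a rule not given in the sources used here. It served as an alternative.

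All files came from 1 slide. Files of the same position had 21 to 75 non-uniform spots in common, against 0 in any other pair, and were averaged and counted as 1 replicate: mimic arrays 1 to 3 hold replicates 1 and 4, 2 and 5, and 3 and 6, and scrambled arrays 1 and 2 hold replicates 1 and 3, and 2 and 4. Control spots and outlier spots (157 to 270 a file) were left out, spots of 1 probe were averaged, and from each log2 signal the file's 75th percentile was subtracted, taken over the 13022 probes detected (well above background) in every file. Probes detected in 4 or more of the 10 files were kept (16783), 1 a gene by highest mean signal. Of 13187 genes, 39 lacked a value on an array. The 13148 others were fitted with limma 3.58.1 in R 4.3.3 (lmFit, eBayes; 3 residual degrees of freedom), with Benjamini-Hochberg adjustment and a threshold of 0.05. The scripts were tested on simulated data. Probes were named through RefSeq accessions (28026), current symbols (3418) or synonyms (295), and the rest (23942) kept the name in the files. The number of arrays limits the precision.

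The genes described, the pathway and marker lists and the tests were chosen with earlier results of these data known. Named beyond the 5 genes were, in each pathway list, the genes past the threshold and the pair with the smallest p of the rest, the marker genes past the threshold or, for naming only, of brightest probe in their list, and the 5 genes most like and most unlike Il33. The pair that this rule names in the cytokine processing list is not reported here. Alternatives covered background correction, normalisation, filter, value source, scans, replicate block and each array left out.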

Additional observations from a re-analysis of the deposited data

How the results depend on the processing

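Il33 stayed higher and Il1r1 lower after the mimic under every alternative run. The pathway genes chosen by the naming rule kept their sign in 251 of 251 combinations of a gene and an alternative. All of these combinations draw on the same arrays, so they are not independent. With normexp background correction the difference was 2.14 for Il33 and -0.78 for Il1r1, and with the percentile over all probes it was -0.85 for Il1r1. Leaving out 1 array at a time gave 2.17 to 2.62 for Il33 and -1.18 to -0.83 for Il1r1. It gave 47 to 4369 genes past the threshold instead of 673, and 0 to 28 pathway genes instead of 8, with a lone scrambled array taken to vary as the mimic arrays do. Without the filter on dim probes, 34515 genes were tested, and 17 genes and 0 pathway genes passed. At an unadjusted p under 0.05 these counts were 2821 and 10. With all 10 files as separate arrays 4518 genes and 26 pathway genes passed, and with scan as a block and array position as a random block 1459 genes did. The cause of these shifts was not tested. With the replicate number as a block over the 10 files, 1945 genes and 16 pathway genes passed, with 2.42 for Il33 and -0.99 for Il1r1. The deviations of same-numbered samples had correlations of 0.38, -0.04, -0.35 and -0.10. Deviations of only 2 scrambled arrays from their mean largely mirror each other, so these correlations cannot decide whether the numbers pair the samples. The percentile over all probes moved the median of all differences to 0.11, against -0.05, and gave 503 higher and 234 lower genes, against 367 and 306, with the Ccl7 call lost (limma adjusted p = 0.0552). In the first scan alone Casp1 (0.0775) and Ccl7 (0.0809) lost their calls, and in the second alone Casp4 did (0.0654). Signal over background limits Il1rl1, Il1rn and Il1rap, for which no difference can be given.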
